A study of Mus musculus with 8 samples.

Results

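The cytosolic translation initiation and elongation factors are the proteins that load mRNAs onto ribosomes, select the start codon and move the ribosome along the message. Their genes were taken from the deposited table as every protein-coding gene whose symbol begins with Eif followed by a digit from 1 to 6, or with Eef followed by 1 or 2. The 3 genes Eif2ak3 (the eIF2 alpha kinase PERK), Eif2s3x and Eif2s3y (both eIF2 gamma) were set aside, for which the rule gives no reason, and this left 65 of the 55114 genes listed. The rule uses symbols and gene type alone, but it was set with earlier results of these data known.

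The samples were crypts, the pockets of the intestinal epithelium that hold the stem cells, released with EDTA from the intestines of 8-week-old C57BL/6 mice. Their total RNA was extracted and sequenced (RNA-seq) in 4 Mex3a-/- mice (KO) and 4 littermate controls labelled Ctrl (WT). MEX3A is an RNA-binding protein, and the deletion was constitutive, so every cell of a KO mouse lacked it and an effect arising outside the epithelium cannot be told apart from one within it. The question was whether crypts without MEX3A carry different amounts of the translation factor mRNAs. These libraries measure mRNA abundance and hold no measurement of protein, phosphorylation or ribosome occupancy. In such bulk samples, fewer cells of a type and less RNA per cell cannot be told apart.

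Between 20324184 and 30654105 reads per mouse were counted on genes. Mex3a itself lay between 11.03 and 15.97 CPM (counts scaled to the normalized size of each library) in the WT mice and between 0.260 and 1.09 CPM in the KO mice. The study's KO lacks exon 1 and part of exon 2, and where in the locus the remaining KO reads fall was not analysed here. By Xist and Y-linked transcripts, replicates 1 and 2 of each genotype carried Y transcripts and replicates 3 and 4 expressed Xist. The 5 epithelial markers summed to 8090 to 8625 CPM in WT and 9179 to 10670 CPM in KO. All 5 had a higher mean in KO, and 3 were called higher at an unadjusted edgeR p under 0.05 (5.33% of all genes tested). The 5 stem cell markers summed to 5073 to 5742 CPM in WT and 3797 to 4690 CPM in KO. All 5 had a lower mean in KO, and 4 were called lower (3.05% of all genes). The sums of the 5 proliferation markers overlapped (1421 to 1762 and 1301 to 1719 CPM), with all 5 means lower in KO and 0 called. The part of these shifts in the values below was not tested.

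Cap-dependent initiation starts when eIF4E binds the cap and the scaffold eIF4G joins it to the helicase eIF4A, together called eIF4F. The small ribosomal subunit, carrying eIF3, eIF1, eIF1A and the ternary complex of eIF2, GTP and initiator tRNA, then scans to the start codon, where eIF5 triggers GTP hydrolysis and eIF5B joins the large subunit. eIF2B reloads eIF2 with GTP, stress kinases block that step by phosphorylating eIF2 alpha, and the 4E-binding proteins hold eIF4E away from eIF4G until mTORC1 releases it. In elongation, eEF1A delivers aminoacyl-tRNA, eEF1B recharges eEF1A, and eEF2 translocates the ribosome. Crypt cells divide continuously to renew the epithelium, and they draw on this machinery for growth.

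Because the deleted protein binds RNA, the 3'UTRs of these mRNAs were searched on the sense strand for the MEX-3 recognition element, a pair of short half-sites, the first ending in AG and the second in TA as written in DNA letters, separated by up to 8 bases, in the GENCODE M21 annotation of GRCm38. Examples of matches are printed to show what such a site looks like in members of different roles, with both half-sites in capitals and each sequence on its own line.
Eif4g1, chr16:20692658-20692676, plus strand: ggcacAGAGaTATAtataa
Eif4a2, chr16:23112627-23112644, plus strand: taattTGAGTATAtaacg
Eif5b, chr1:38051794-38051814, plus strand: tggacTTAGgtgTATAaaatg
Eif2ak2, chr17:78852577-78852594, minus strand: gaaatTGAGTCTAaatag
Neighbouring matches of the element can overlap each other in the same 3'UTR. At least 1 match was present in 39 of the 62 tested members (62.9%), against 74.3% of the 12989 genes that were tested and carry a 3'UTR in the annotation. Member 3'UTRs were shorter (median 860 bases, against 1110 over those genes), and genes spread over the members' length classes held the element in 68.9% of cases. Eif1ax, with a 3'UTR of 4515 bases, had 25 matches, whereas Eef1a1 (285 bases) and Eef2 (416 bases) had 0. The median log2 fold change of KO over WT was -0.040 for the 39 members with a match and -0.023 for the 23 without. A match is a description of the letters and is not a binding measurement.

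Several translation factor mRNAs are known as 5'TOP messages, which by definition begin with a C and a pyrimidine run and whose translation follows mTORC1. Among the RefSeq start sites (GRCm38.p6), 49 of the 65 members had 64 windows, and 1 window, that of Eif3f, opened exactly with C and at least 4 pyrimidines (1.56% of member windows, against 2.51% of all 32851 windows). It is printed to show a pyrimidine run near a start. The capitals mark the run from the annotated first base onward, and the pyrimidines just before that base are left in lower case.
Eif3f, chr7:108934405-108934429, plus strand: tctaggctctCTCTCTTTCTCggca
No match says only that these letters are not at the annotated first base. The 9 members known as classic TOP mRNAs (Eef1a1, Eef1b2, Eef1d, Eef1g, Eef2, Eif3e, Eif3f, Eif3h and Eif4b) had log2 fold changes between -0.13 and 0.013, of which 8 were negative (7 to 9 across the alternatives). Their median was -0.057, against -0.033 for the other 53 tested members. None of them passed the test, the lowest unadjusted p, that of Eif3e, being 0.0960 by edgeR.

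Levels are compared between genes on the deposited FPKM scale, which divides reads by gene length and library size. Translation factors ranged over more than 3 orders of magnitude. Eef1a1, the main aminoacyl-tRNA carrier, had 3387 ± 216 FPKM in WT and 3274 ± 181 FPKM in KO (SD, n = 4 each), and took 32.7% to 35.8% of all reads counted on the members in the 8 mice. Eef2, the translocase, followed with 1146 ± 92.0 FPKM in WT and 1133 ± 97.0 FPKM in KO. The eEF1B subunits Eef1g (358 FPKM over the 8 mice) and Eef1b2 (290 FPKM) came next, with the hypusinated factor Eif5a between them (338 FPKM). The most abundant initiation factor mRNAs were the helicase Eif4a1 (168 FPKM), the eIF3 subunit Eif3h (154 FPKM), the start codon factor Eif1 (149 FPKM) and the helicase cofactor Eif4b (148 FPKM). At the other end stood Eif4e3 (1.37 FPKM), Eif4ebp3 (1.12 FPKM) and the lysine methyltransferase Eef1akmt3 (0.938 FPKM).

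**Figure D1:**
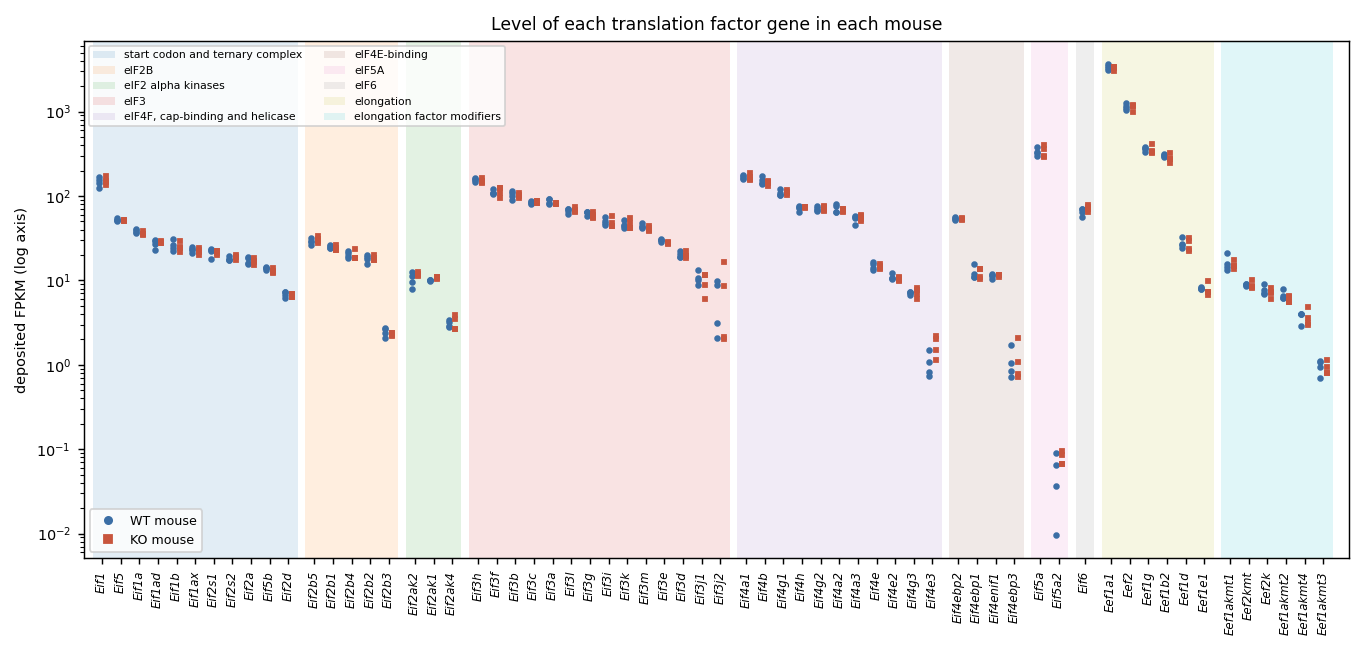
Deposited FPKM (log axis) of each translation factor gene with reads, in each of the 4 WT mice (blue circles) and 4 KO mice (red squares), ordered within shaded role groups. Elongation factors Eef1a1 and Eef2 lie above all others, and the blue and red points lie close together for most genes but spread for Eif3j1, Eif3j2, Eif4e3 and Eif4ebp3.

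3 members were not tested. Eef1a2, the eEF1A paralog of muscle and neurons, and Eif4e1b, a germ-line cap-binding paralog, had 0 counts in all 8 mice. Eif5a2 had 1 to 11 counts per mouse. Reads of the remaining 62 were compared between genotypes by edgeR's quasi-likelihood test, fitted over all 16109 genes that passed a filter on low counts, with Benjamini-Hochberg adjustment over the same genes. Whether the counting used strand, and how it treated reads on shared exon bases, is not given in the sources used here. In the GENCODE M21 annotation, 28 of the 65 members share exon bases with another gene, 16 of them with a protein-coding one. Their counts can therefore be affected by the partner.

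The translation factor mRNAs differed little between KO and WT crypts. At an unadjusted p under 0.05, 1 of 62 members was higher in the KO and 0 were lower, against 5.33% and 3.05% of all genes tested. In either direction this was 1.61% of the members, against 8.38% of all genes. 0 of 62 passed at an adjusted p under 0.05 by edgeR (0.00621% of all genes tested) or by DESeq2, with 1 member at an unadjusted p under 0.05 by either tool. Fold changes were small: the median absolute log2 fold change was 0.055 in the members and 0.13 over all genes tested. Of the 62, 42 (67.7%) had a negative log2 fold change, against 53.9% of all genes, and the median was -0.039 against -0.016. The number of negative members was 39 with RLE factors or DESeq2 and 48 with upper-quartile factors, and it was 34 of 63 without WT replicate 2 and 50 of 62 without WT replicate 4. All members together took 2.28% to 2.55% of the counts in each mouse.

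How much change these data leave room for is given by the 95% intervals of the log2 fold changes. For 44 members the interval lay within a 1.25-fold difference either way and for 58 within 1.5-fold. The 4 exceptions to the latter were Eif3j1, Eif3j2, Eif4e3 and Eif4ebp3. The spread between mice was correspondingly narrow: the median coefficient of variation over the 8 mice was 8.04% for the members, against 9.46% for genes at least as abundant as the median member and 15.8% for all genes tested. It ran from 2.63% in Eif5 to 78.8% in Eif3j2, with 42 members at or below 10%.

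**Figure D2:**
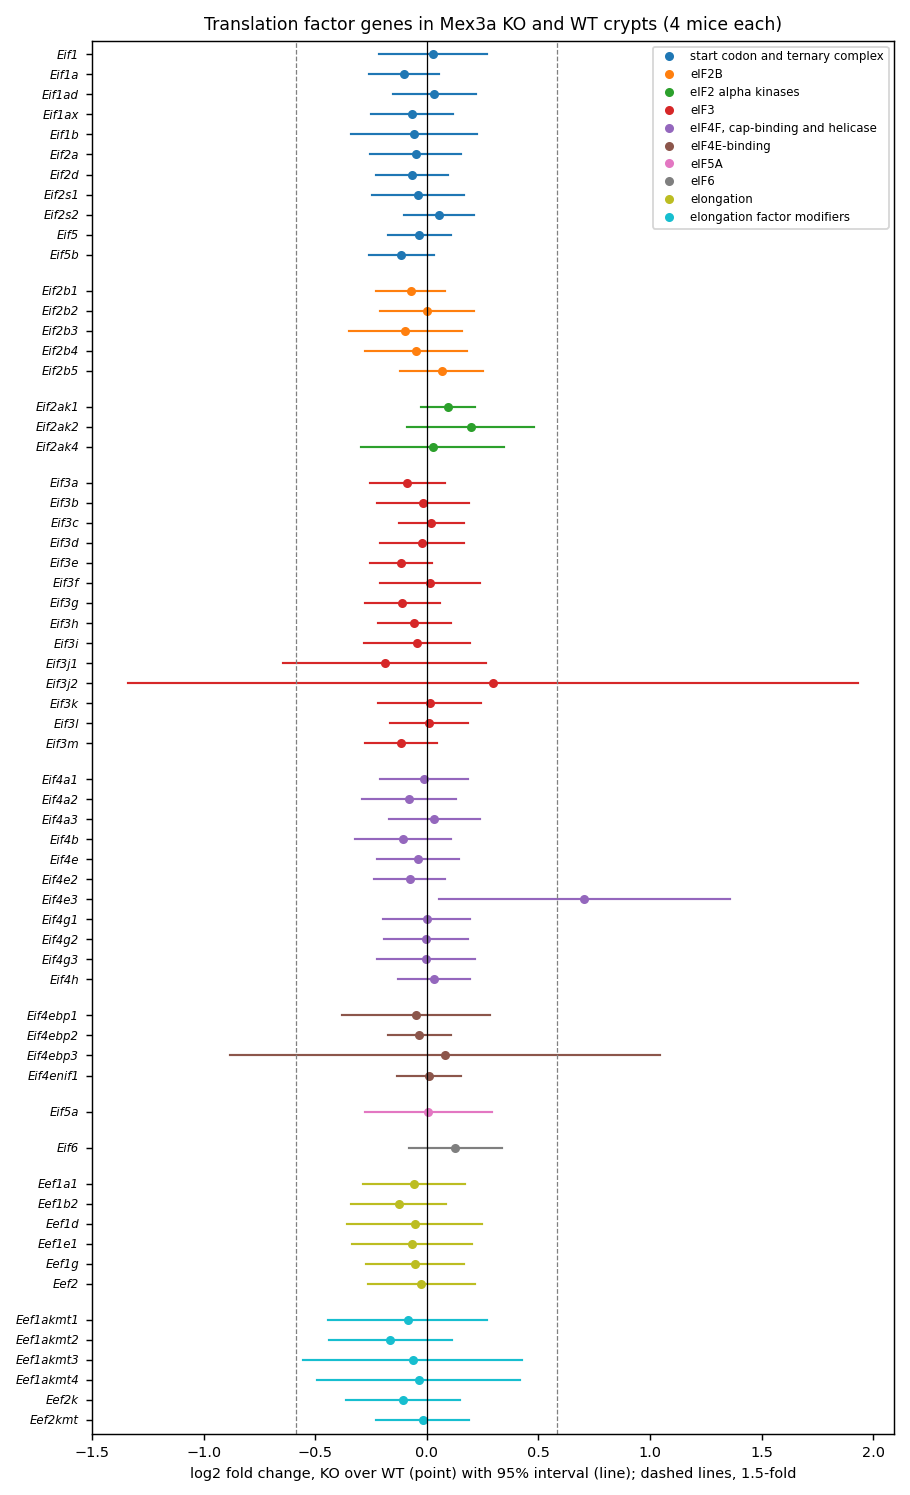
Fitted log2 fold change of KO over WT (points) with its 95% interval (lines) for the 62 tested members, coloured by role, with dashed lines at a 1.5-fold difference. Only 4 intervals cross a dashed line, those of Eif3j1, Eif3j2, Eif4e3 and Eif4ebp3, and the interval of Eif4e3 alone excludes 0.

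Start codon selection and ternary complex factors were close to 0. All 11 members were tested, 8 log2 fold changes were negative and the median was -0.050. Eif2s1 encodes eIF2 alpha, the subunit that stress kinases phosphorylate, and had 90.6, 113, 118 and 113 CPM in WT and 111, 109, 99.0 and 104 CPM in KO. The genotypes overlapped, with a log2 fold change of -0.040 (SE 0.091, edgeR adjusted p = 0.945). Eif2s2, eIF2 beta, stood at 0.054 (SE 0.070). Eif1, which guards start codon fidelity, had 311 ± 38.2 CPM in WT and 317 ± 29.4 CPM in KO (SD, n = 4). Eif5 was the least variable of all members, with 361 ± 11.96 CPM in WT and 353 ± 4.06 CPM in KO. Eif5b, the subunit-joining GTPase, had the lowest log2 fold change of the class, -0.12 (SE 0.065, edgeR adjusted p = 0.660), and 16.8% of its exon bases lie opposite Rev1. The autosomal Eif1a and the X-linked Eif1ax encode nearly the same protein. Eif1a contributed 59.1% to 65.4% of their joint FPKM in WT and 60.5% to 64.1% in KO, with overlap between the genotypes.

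The 5 subunits of eIF2B, the guanine nucleotide exchange factor, had log2 fold changes between -0.097 and 0.066, and none passed. Eif2b5, the catalytic subunit and the most abundant of them (29.7 FPKM), had 75.6 ± 5.39 CPM in WT and 79.2 ± 6.67 CPM in KO.

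Eif2ak3 being set aside, the other 3 kinases of eIF2 alpha had positive log2 fold changes, none of which passed the test, and Eif2ak4 turned negative in 4 of the runs that left out a mouse (down to -0.082). Eif2ak1 encodes the heme-regulated kinase HRI and had 57.9, 57.5, 56.8 and 56.0 CPM in WT and 59.9, 61.8, 62.1 and 59.4 CPM in KO. Every KO mouse was above every WT mouse by a small margin. This gene was singled out after its values were seen. Its log2 fold change was 0.093 (SE 0.053, edgeR adjusted p = 0.668). Of its exon bases, 8.59% lie opposite Aimp2. Eif2ak2 encodes PKR, the double-stranded RNA sensor induced by interferon, and had 49.7, 40.6, 63.9 and 57.8 CPM in WT and 59.2, 57.9, 61.4 and 64.1 CPM in KO. Of the KO mice, 3 lay within the WT range and KO 4 just above it, with a log2 fold change of 0.20 (SE 0.13, edgeR adjusted p = 0.710). Without WT replicate 3 the log2 fold change of Eif2ak2 was 0.30 and passed an unadjusted p of 0.05 (edgeR adjusted p = 0.777), and without WT replicate 2 it was 0.087 and did not. Eif2ak4 encodes GCN2, the sensor of uncharged tRNA, and had a log2 fold change of 0.026 (SE 0.14).

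The 14 members of eIF3, the scaffold of the initiating small subunit, had a median log2 fold change of -0.034, with 9 negative and 5 positive. The number of negative members was 12 with upper-quartile factors, 6 without WT replicate 2 and 13 without WT replicate 4. Their summed level was 2848 ± 107 CPM in WT and 2772 ± 110 CPM in KO (SD, n = 4). Eif3e had 204, 201, 211 and 194 CPM in WT and 194, 180, 186 and 188 CPM in KO. Every KO value was below every WT value, the nearest pair being 193.6 in KO and 193.8 in WT. Its log2 fold change was -0.11 (SE 0.062, edgeR adjusted p = 0.649). An exact two-sided permutation test over the 70 assignments of the mice gave p = 0.0286, the smallest it can give and the value that any pair of groups without overlap has. Exchanging only same-numbered mice, the exact p was 0.125, the smallest that 16 assignments allow, and it was also 0.125 for Eif4e3, Paip1 and Rps6kb2 and 0.25 for Trib3. Eif2ak1 and Eif3e were thus the 2 members (3.23% of 62) whose genotypes did not overlap, against 4.05% of all genes tested, with Eif2ak1 above (2.17% of all genes) and Eif3e below (1.87% of all genes). The large core subunit Eif3a had 449 ± 31.2 CPM in WT and 423 ± 6.57 CPM in KO, at -0.088 (SE 0.075). Eif3h stood at -0.057 (SE 0.072) and Eif3f at 0.013 (SE 0.099).

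Within eIF3, the pair Eif3j1 and Eif3j2 varied between mice in opposite directions, a pattern singled out after the values were seen. Both encode eIF3j, a loosely bound subunit that helps in start site selection and recycling. Eif3j1 lies at chr2:122028546-122056598 (8 exons in the transcript compared, with 19.0% of the gene's exon bases opposite Spg11), and Eif3j2 is a single-exon copy at chr18:43475418-43477796. Their transcripts were 99.8% identical over 2369 aligned bases, with 4 mismatches, and 84.0% of the 100-base stretches of Eif3j2 occurred unchanged in Eif3j1, so reads cannot always be assigned to the right copy and the counts of either alone are uncertain. Eif3j2 had 21.4, 4.95, 23.4 and 7.48 CPM in WT and 39.6, 5.04, 4.85 and 20.7 CPM in KO. Eif3j1 had 59.3, 77.5, 51.5 and 63.5 CPM in WT and 35.5, 67.1, 67.2 and 51.0 CPM in KO. In each genotype 2 mice were high in Eif3j2 and low in Eif3j1 (WT 1, WT 3, KO 1 and KO 4), and the other 2 were the reverse.

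The 2 genes together were steady across mice. The sum was 80.7, 82.4, 74.9 and 71.0 CPM in WT and 75.1, 72.2, 72.0 and 71.6 CPM in KO, a 1.16-fold range, against an 8.18-fold range for Eif3j2 alone. The coefficient of variation over the 8 mice was 5.78% for the sum, 21.9% for Eif3j1 and 78.8% for Eif3j2. Tested as a sum, the pair had a log2 fold change of -0.087 (SE 0.067, edgeR adjusted p = 0.767). The share of joint counts on Eif3j2 ran from 6.01% to 31.2% in WT and from 6.73% to 52.8% in KO, with overlap between the genotypes. The high shares were in replicates 1 and 3 of WT and replicates 1 and 4 of KO, 2 mice with Y transcripts and 2 with Xist.

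Eif2ak4, on the same chromosome as Eif3j1 and 3.55 Mb away, was highest in the same 4 mice. Its values were 26.0, 21.1, 24.0 and 21.8 CPM in WT and 28.8, 19.9, 19.9 and 26.0 CPM in KO. Dph6, a diphthamide synthesis enzyme also on chromosome 2, had 20.9, 16.4, 20.8 and 18.5 CPM in WT and 21.2, 18.6, 17.5 and 20.4 CPM in KO, again highest in WT 1, WT 3, KO 1 and KO 4. Neither Eif2ak4 nor Dph6 passed the test between genotypes (edgeR adjusted p = 0.983 for Eif2ak4 and 0.980 for Dph6). The match of these 2 genes was singled out after their values were seen, and chromosome 2 genes were not counted for it. Other chromosome 2 genes did not share the split. Tsc1 had 58.5, 48.5, 46.2 and 45.7 CPM in WT and 45.2, 57.1, 49.9 and 51.4 CPM in KO. Trib3 and Eif6 were highest in KO 3. A cause was not tested.

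**Figure D3:**
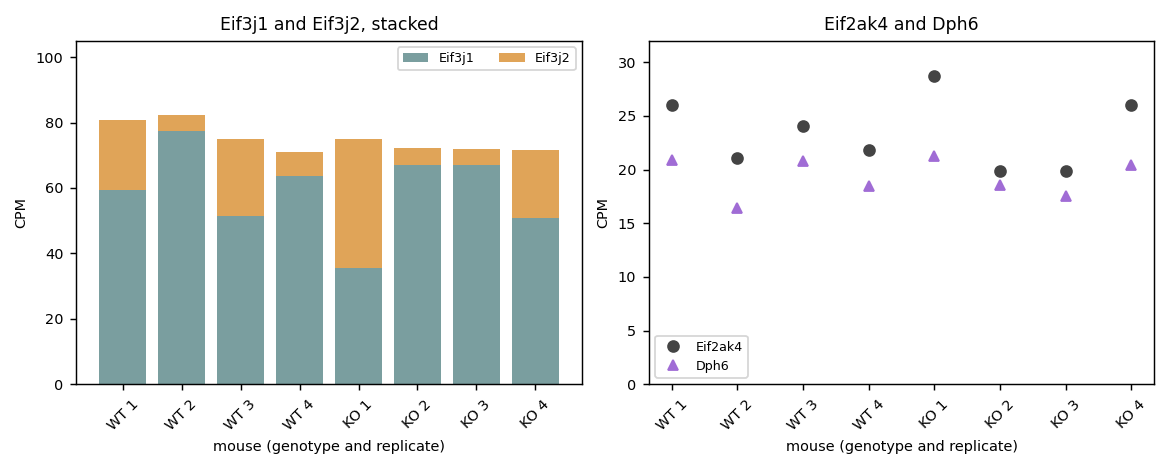
Left, CPM of Eif3j1 and Eif3j2 stacked for each of the 8 mice. Right, CPM of Eif2ak4 and Dph6 in the same mice. The stacked totals lie between 71.0 and 82.4 CPM, while the Eif3j2 part is large in WT 1, WT 3, KO 1 and KO 4, the mice in which Eif2ak4 and Dph6 were also highest.

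Of the 12 cap-binding, scaffold and helicase genes, 11 were tested, with a median log2 fold change of -0.0040 and 1 called. The scaffolds Eif4g1, Eif4g2 and Eif4g3 had log2 fold changes of -0.00135, -0.00263 and -0.00398, with SEs of 0.087, 0.084 and 0.098. Eif4g1 took 58.2% ± 3.05 of the family's FPKM in WT and 58.3% ± 2.39 in KO (SD, n = 4). The helicase Eif4a1 had 737 ± 34.1 CPM in WT and 731 ± 64.3 CPM in KO, and its paralog Eif4a2 stood at -0.080 (SE 0.094). The exon-junction helicase Eif4a3, a relative with another function, took 18.3% of the family's FPKM in WT and 19.0% in KO. Eif4b had 690 ± 74.4 CPM in WT and 641 ± 34.7 CPM in KO, with overlap between the genotypes. Eif4e, the cap-binding protein itself, stood at -0.040 (SE 0.082), and Eif4e2, the cap-binding paralog that represses translation, at -0.077 (SE 0.071).

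Eif4e3 was the 1 member called. It encodes a cap-binding paralog that does not bind the 4E-binding proteins. Its counts were 59, 45, 38 and 92 in WT and 69, 130, 87 and 165 in KO, equal to 2.73, 2.10, 1.86 and 3.84 CPM and to 2.90, 5.04, 3.76 and 5.49 CPM. The 2 genotypes overlapped, with KO 1 and KO 3 below WT 4. In all 4 same-numbered pairs the KO mouse was higher, and the exact permutation p within pairs was 0.125, the smallest possible. The log2 fold change was 0.71 (SE 0.29, edgeR p = 0.0369, adjusted p = 0.568), its 95% interval ran from 0.053 to 1.36, and the exact two-sided permutation test gave p = 0.0857. Eif4e3 took 2.73% to 5.81% of the Eif4e family's FPKM in WT and 4.15% to 8.39% in KO. The call rested on several single mice: without WT replicate 1, 2 or 3, or KO replicate 2 or 4, its p was between 0.0609 and 0.105 and no longer under 0.05. The log2 fold change in those runs was 0.57 to 0.72. On the log2(FPKM + 1) scale, which understates the change of low genes, limma gave 0.41.

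Of 41 markers of other cell types, 35 were tested, and by the unadjusted p 6 were higher in KO (17.1%, against 5.33% of all genes tested) and 1 was lower (2.86%, against 3.05%). The sums of every list given here overlapped between the genotypes. Of 7 immune markers, 6 had a higher mean in KO and 2 were called higher, with sums of 19.2 to 36.2 CPM in WT and 29.5 to 58.1 CPM in KO. All 6 enterocyte markers had a higher mean, with 1 called (896 to 2468 and 1347 to 5987 CPM), as had all 5 goblet cell markers, with 2 called (3485 to 5167 and 4721 to 6892 CPM). All 4 Paneth cell markers had a lower mean in KO and 0 were called (9655 to 28747 CPM in WT and 5250 to 15083 CPM in KO), and without WT replicate 1 the highest WT sum was 14852 CPM. All 3 tuft cell markers had a lower mean and 0 were called (37.5 to 90.7 and 30.6 to 53.4 CPM). The mean was higher in KO for 2 of 4 enteroendocrine markers (1 called higher), 4 of 7 of stroma and muscle (3 tested, 0 called), 2 of 3 of nerve (2 tested, 0 called) and 0 of 2 of blood (1 tested and called lower). 0 of these markers was at 0 in all 8 mice, and their part in the value of Eif4e3 was not tested. The annotation places 14.8% of the exon bases of Eif4e3 in a second gene model on the same strand, Gm20696.

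**Figure D4:**
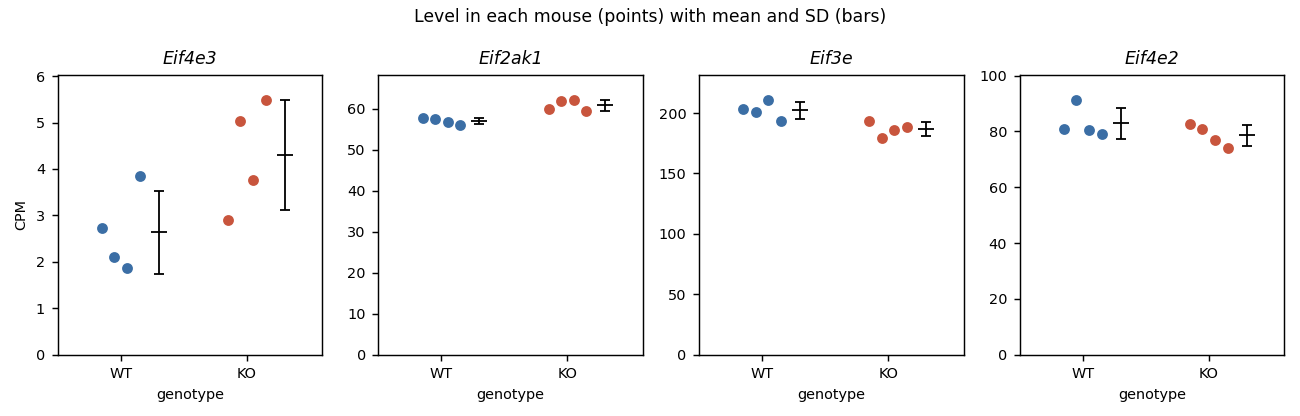
CPM of Eif4e3, Eif2ak1, Eif3e and Eif4e2 in each WT (blue) and KO (red) mouse, with mean and SD beside the points and axes from 0. KO points lie above all WT points in Eif2ak1 and below them in Eif3e, overlap in Eif4e3, and in Eif4e2 a single WT mouse at 91.3 CPM stands above the rest.

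The 4E-binding proteins, the mTORC1-controlled brakes on eIF4E, and Eif4enif1 had log2 fold changes between -0.050 and 0.080, and none passed. Eif4ebp2, the dominant form with a mean of 79.97% of the family's FPKM in each genotype, had 315 ± 9.73 CPM in WT and 308 ± 6.23 CPM in KO (SD, n = 4). Eif4ebp1 had 27.7 ± 5.12 and 26.8 ± 3.63 CPM. Eif4ebp3 was near the limit of measurement, at 0.813 ± 0.338 and 0.867 ± 0.475 CPM, and its interval from -0.88 to 1.04 allowed differences from 0.543-fold to 2.06-fold. It shares 67.3% of its exon bases with a longer read-through gene model, so its reads are uncertain. Eif4enif1, the transporter of eIF4E into the nucleus, stood at 0.0098 (SE 0.064).

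Eif5a, which relieves ribosomes stalled at prolines, had 720, 915, 799 and 784 CPM in WT and 960, 864, 711 and 698 CPM in KO. The mean log2 fold change was 0.0067 (SE 0.13), and the KO mice had both the highest and the lowest values. Eif5a2 took at most 0.0317% of the Eif5a and Eif5a2 FPKM in any mouse. Eif6, which keeps the ribosomal subunits apart and takes part in large-subunit maturation, had 153, 191, 191 and 177 CPM in WT and 202, 189, 211 and 177 CPM in KO, a log2 fold change of 0.13 (SE 0.093, edgeR adjusted p = 0.749).

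All 6 tested genes of the elongation group had negative log2 fold changes, between -0.13 and -0.026, and none passed the test. The group was formed by symbol and includes Eef1e1, a component of the synthetase complex. Eef1d and Eef2 turned positive in some runs that left out a mouse (up to 0.034 and 0.037). The summed level of the group, Eef1e1 included, was 14284 ± 876 CPM in WT and 13776 ± 847 CPM in KO (SD, n = 4), with overlap between the genotypes. Eef1a1 had 9215, 7872, 8649 and 8318 CPM in WT and 8466, 7526, 8236 and 8490 CPM in KO. Its log2 fold change was -0.058 (SE 0.10, edgeR adjusted p = 0.926). Eef1b2, the exchange subunit of eEF1B, had 773, 799, 768 and 738 CPM in WT and 810, 617, 702 and 693 CPM in KO, with 3 KO mice below the WT range and KO 1 above it. Its log2 fold change was -0.13 (SE 0.094, edgeR adjusted p = 0.763). Without KO replicate 1, Eef1b2 and the synthetase-complex component Eef1e1 passed an unadjusted p of 0.05 as lower in KO (edgeR adjusted p = 0.358 and adjusted p = 0.379), at log2 fold changes of -0.20 and -0.19. Eef1b2 was -0.063 without KO replicate 2, and Eef1e1 was -0.0039 without KO replicate 4. Eef1g and Eef1d stood at -0.051 (SE 0.098) and -0.056 (SE 0.13), and Eef2 at -0.026 (SE 0.11).

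The 6 genes whose products modify elongation factors also all had negative values, with a median of -0.075 and none past the test. Of the 6, 4 turned positive in at least 1 run that left out a mouse, Eef1akmt1 up to 0.068, Eef1akmt3 up to 0.016, Eef1akmt4 up to 0.054 and Eef2kmt up to 0.013. Eef2k, the kinase that inhibits eEF2, had 51.6, 52.6, 66.6 and 56.9 CPM in WT and 44.0, 52.8, 60.0 and 54.4 CPM in KO, a log2 fold change of -0.11 (SE 0.11, edgeR adjusted p = 0.838). Eef1akmt1, the most abundant of the eEF1A lysine methyltransferases, had 15.3 ± 3.22 CPM in WT and 14.4 ± 1.65 CPM in KO.

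The other genes of the pathway were counted from a list by role. Of 44 genes for poly(A) binding, scanning, termination and recycling, mTORC1 signalling, eIF2 control and hypusine or diphthamide synthesis, all 44 were tested, 2 were higher and 1 was lower in KO by the unadjusted p (6.82% in either direction, against 8.38% of all genes tested; 5.33% of all genes were higher and 3.05% lower), and none passed after adjustment (lowest adjusted p = 0.518, edgeR). Their median log2 fold change was -0.019.

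Rps6kb2, the S6 kinase paralog downstream of mTORC1, had 4.34, 5.84, 1.22 and 5.22 CPM in WT and 14.8, 7.29, 12.9 and 12.2 CPM in KO. All 4 KO mice lay above all 4 WT mice, with a log2 fold change of 1.499 (SE 0.41, edgeR adjusted p = 0.518) and an exact two-sided permutation p = 0.0286. The GENCODE M21 annotation places 1224 of the 5167 exon bases of Rps6kb2 (23.7%) opposite Ptprcap, a leukocyte gene. The deposited length of Rps6kb2 is 2445 bases, so the reads may have been counted on a shorter gene model. The overlap of that model with Ptprcap was not measured. The immune marker sums given above had a higher mean in KO but overlapped, and their part in the Rps6kb2 value was not tested. Trib3, a target of the ATF4 arm of the stress response, had 1.76, 1.12, 1.12 and 1.88 CPM in WT and 1.64, 1.71, 4.76 and 3.09 CPM in KO. The 2 KO mice with Xist were high and the other 2 were within the WT range. The log2 fold change was 0.92 (SE 0.38, edgeR adjusted p = 0.572), with an exact two-sided permutation p = 0.171. With the replicate number as a block it was 0.82, and the unadjusted edgeR p then lay above 0.05 (0.0564). It was 0.55 without KO replicate 3 and 0.42 with limma on log2(FPKM + 1), and the call was lost in both. Paip1, a poly(A)-binding protein partner that stimulates initiation, had 81.6, 75.7, 77.6 and 73.2 CPM in WT and 68.8, 71.9, 70.7 and 64.1 CPM in KO. All KO values were below the WT values, with a log2 fold change of -0.16 (SE 0.065, edgeR adjusted p = 0.563) and an exact two-sided permutation p = 0.0286. The call of Paip1 was lost without WT replicate 1 or 3, without KO replicate 1 or 4 and without a filter on low counts, while its log2 fold change lay between -0.19 and -0.13 in all 18 alternatives. Atf4 itself stood at 0.098 (SE 0.085).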

How the data were processed

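RNA-seq of intestinal crypt RNA from 4 WT and 4 KO mice was analysed, with genotype and replicate taken from the labels. Per the labels and the submitters' processing notes, the authors used CASAVA, HISAT2 2.0.5 and featureCounts 1.5.0-p3. The genome build is not named in the sources used here, and the deposited gene coordinates matched GRCm38. The authors deposited raw counts per gene without normalization, and FPKM values, which scale the counts to library size and gene length. The authors' own group means, log2 fold changes and p-values were deposited beside them and were not used.

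The counts were compared with edgeR 4.0.16 in R 4.3.3: filterByExpr (minimum count 10), TMM factors and the quasi-likelihood test with genotype as the only term over all 8 mice, adjusted by the Benjamini-Hochberg method over 16109 genes. CPM are scaled by the same factors. The 95% intervals use the standard error and 9.34 total degrees of freedom. Alternatives were DESeq2 1.42.0, limma 3.58.1 on log2(FPKM + 1) or log2(FPKM + 0.1) with a mean FPKM of at least 0.5, upper-quartile or RLE factors, a filter of 10 counts in every mouse or none, an Xist or Y term, a replicate block, leaving out each mouse, and, chosen after seeing the data, Eif3j1 and Eif3j2 summed and permutation within same-numbered mice.

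Mice sharing a replicate number departed from the means of their genotypes together (correlation 0.134 to 0.552 across genes, every one of the 4 pairs above 0.1). By that criterion the numbers count as pairing. Over autosomal genes alone the range was 0.0867 to 0.529, with pair 3 under 0.1, and over the members it was -0.612 to 0.736. Same-numbered mice also share Xist or Y transcripts. Libraries of a genotype differed by more than counting noise, with a chi-square of 20.9 to 76.5 for each degree of freedom. The members and the role, pathway and marker lists were chosen with earlier results of these data known. Genes named were those with an unadjusted p under 0.05, the most abundant member of each role and a fixed list of core factors. Also named were Eif2ak1, Eif3j1, Eif3j2, Dph6, Tsc1, Eef1e1, Eif4a3, Eif4enif1, Eef1akmt3, Eef1akmt4, Eef2kmt and Atf4. These fall outside this rule and were chosen after their values were seen. The gene for GCN1 was found under its older symbol Gcn1l1. At these depths genes with few counts, such as Eif4e3, carry a larger relative counting error than abundant genes. The part of that error in their spread between mice was not separated.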

Additional observations from a re-analysis of the deposited data

Results flagged for a closer look

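Among 78 sets of 4 mice examined (39 named genes with reads, in each genotype, Eif5a2 included although it was not tested), 1 held a mouse far from the others, against 3.9 expected by chance at 1 in 20. Eif4e2, which encodes the cap-binding paralog of eIF4E known for translational repression, had 91.3 CPM in WT replicate 2, while the other 3 WT mice lay between 79.1 and 80.9 CPM and the 4 KO mice between 74.1 and 82.6 CPM. Its log2 fold change was -0.08 (SE 0.07, edgeR adjusted p = 0.810).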

How the results depend on the processing

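No member passed an adjusted p of 0.05 in any of the 18 alternatives. By the unadjusted p, the count of higher members was 1 outside the runs that left out a mouse, where it ran from 0 to 1, with Eif2ak2 in place of Eif4e3 without WT replicate 3. The count of lower members ran from 0 to 2 there. The median log2 fold change ran from -0.071 to -0.0046 when a mouse was left out, the latter without WT replicate 2, and was between -0.053 and -0.025 otherwise. With the replicate block, which pairs same-numbered mice, 1 member was higher, 0 were lower and the median was -0.036, and in the edgeR fit it changed no call besides that of Trib3. Permuted within same-numbered mice, no gene can go below an exact p of 0.125. Of 684 values for 38 named genes, 605 kept direction and call, 17 lost the call (Eif4e3 in 5 alternatives, Paip1 in 5 and Trib3 in 7), 2 gained it (Eef1b2 and Eif2ak2) and 60 values of 15 genes changed sign, all without a call. Leaving out a mouse gave -0.16 to 0.068 for Eef1akmt1, -0.15 to 0.034 for Eef1d, -0.066 to 0.037 for Eef2, -0.045 to 0.091 for Eif1, -0.082 to 0.10 for Eif2ak4, -0.12 to 0.0085 for Eif2s1, -0.036 to 0.091 for Eif3f, -0.071 to 0.029 for Eif4a1, -0.088 to 0.012 for Eif4e, -0.11 to 0.086 for Eif4ebp1, -0.35 to 0.39 for Eif4ebp3, -0.036 to 0.057 for Eif4g1, -0.034 to 0.041 for Eif4g2, -0.069 to 0.076 for Eif4g3 and -0.087 to 0.074 for Eif5a. Eif4g1 was 7.5e-05 with the Xist or Y term, 0.00323 with DESeq2, 0.00322 with RLE factors, 0.00529 without a filter, 0.00208 with 10 counts in every mouse, and 0.00829 and 0.00837 with limma at pseudocounts of 1 and 0.1. Eif4g2 was 0.00261 with DESeq2 and RLE factors, 0.00531 without a filter, 0.000759 with 10 counts in every mouse, and 0.00638 and 0.00646 with limma. Eif4g3 was 0.000625 with DESeq2, 0.000617 with RLE factors and 0.00289 without a filter. Eif5a was -0.00153 with the replicate block, -0.00509 with the Xist or Y term and -0.00795 with upper-quartile factors, under which Eif3f was -0.0034. Rps6kb2 kept its call in all 18. The cause of these sign changes was not tested. Low counts limit Eif4e3, Eif4ebp3, Eef1akmt3 and Eif5a2.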
